A study of Mus musculus with 49 samples.

Results

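Described here are 10 mouse genes around the transforming growth factor beta (TGF beta) superfamily, followed through acetaminophen injury of the liver. They are the inhibitors of differentiation Id1, Id2 and Id3, the inhibitory SMADs Smad6 and Smad7, the pseudoreceptor Bambi, the activin subunits Inhba and Inhbb, the activin antagonist follistatin (Fst) and the ligand Tgfb1. Members were chosen by gene symbol, as every probe set that the platform annotation assigns to 1 of these symbols and to no other. The 10 are among 18193 genes with such a probe set, and they gave 17 of the 34945 probe sets with a single symbol, out of 45037 in all. Of the 17, 8 had a value on all 49 arrays and were followed through 10 groups. The other 9 had values on 25 arrays only, those of 1 h, 12 h, 1 d, 2 d and 16 d, and were read against the 1 h group.

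The mice were male C57BL6/N animals that had been starved overnight, were injected intraperitoneally with acetaminophen (the drug paracetamol, APAP in the labels) at 300 mg/kg, given once in warm phosphate-buffered saline, and were fed ad libitum from then on. Acetaminophen in excess kills the hepatocytes around the central vein, after which the liver regenerates. Livers were taken at 1 h, 6 h and 12 h and again at 1, 2, 4, 6, 8 and 16 days (d), with 4 arrays at 6 h and 5 at each of the other times. The 16 d group is known from the sample labels alone, since the design text ends at 8 d. A further 5 arrays are of control livers, labelled as having no treatment. Whether control mice were starved or injected with vehicle is not stated, nor are ages. In differences from control, starvation, injection and the drug can therefore not be told apart. The arrays of a group are numbered, but nothing states that they come from different mice, and p-values therefore measure the spread between arrays, some of which may be technical.

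Values are log2 expression, and a difference of 1 on this scale is 2-fold. Group levels are given as mean ± SD and differences as estimate ± standard error (SE) from limma, and a difference was called where the p-value, adjusted by Benjamini and Hochberg's method over all probe sets of the comparison, was under 0.05. Levels of different probe sets cannot be set against each other. The arrays read as liver: the summed signal of 9 of 10 hepatocyte markers, Alb and Ttr among them, lay between 16.49 and 16.66 on the log2 scale over the 25 arrays that hold them. The SD of values within an array was 2.25 for control replicate 3, 2.26 for 1 h replicate 3 and 2.26 for 16 d replicate 4, narrower than on the other arrays, and results are also given without these 3 where that changes a call. In whole liver, fewer cells of a type and less RNA per cell cannot be told apart.

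Ligands of this family bind receptor kinases that phosphorylate SMAD transcription factors, one branch serving TGF beta and activins and another serving bone morphogenetic proteins (BMPs). Id genes are classic direct targets of the BMP branch, and their products bind basic helix-loop-helix (bHLH) transcription factors and keep them off DNA. Smad6, Smad7 and Bambi are induced by the pathway and damp it, and follistatin captures activins outside the cell. In the liver, TGF beta restrains hepatocyte division and drives matrix production by stellate cells, while BMP signalling sets the iron hormone hepcidin.

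RefSeq promoters (mouse build GRCm38.p6) were found for 6 of the 10 members, namely Id2, Id3, Inhba, Inhbb, Smad6 and Tgfb1. The window searched, on both strands, ran from 250 bases before the start site of each entry to 30 after it, 280 bases in all. That start site is the one of the promoter entry and need not be the outermost end of the gene. For Inhba and Smad6 it lies inside the annotated gene. The motifs looked for, 3 in number, were the palindromic SMAD element GTCTAGAC, the shorter SMAD-binding letters CAGAC, and the GC-rich element GGCGCC that BMP-activated SMADs are known to bind, and none of them overlaps another in the sequences shown. Id3, Id2 and Smad6 are shown because each holds one of the motifs, marked in capitals, and because Id3 and Id2 were called lower together at 1 h and at 4 d. Id3 lies on the plus strand at chr4:136143572-136143851, Id2 on the minus strand at chr12:25096063-25096342, and Smad6 on the minus strand at chr9:64022030-64022309.
Id3: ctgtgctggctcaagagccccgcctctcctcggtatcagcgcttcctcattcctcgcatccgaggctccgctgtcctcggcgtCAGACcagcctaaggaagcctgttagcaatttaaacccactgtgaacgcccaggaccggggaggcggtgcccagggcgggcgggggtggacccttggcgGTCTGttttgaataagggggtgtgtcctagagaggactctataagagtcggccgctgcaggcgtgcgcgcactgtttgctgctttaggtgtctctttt
Id2: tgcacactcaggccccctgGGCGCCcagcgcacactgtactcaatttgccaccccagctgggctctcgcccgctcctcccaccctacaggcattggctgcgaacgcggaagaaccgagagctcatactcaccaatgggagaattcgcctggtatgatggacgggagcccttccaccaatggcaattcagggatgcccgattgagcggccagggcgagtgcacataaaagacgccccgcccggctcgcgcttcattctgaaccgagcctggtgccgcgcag
Smad6: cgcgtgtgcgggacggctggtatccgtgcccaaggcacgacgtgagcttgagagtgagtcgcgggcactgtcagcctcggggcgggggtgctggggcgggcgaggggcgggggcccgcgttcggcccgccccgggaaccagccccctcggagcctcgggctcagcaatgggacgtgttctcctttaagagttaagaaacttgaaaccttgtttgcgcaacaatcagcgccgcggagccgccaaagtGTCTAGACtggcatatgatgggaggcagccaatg
The Smad6 window held GTCTAGAC with its first base at position -4 relative to the start of its entry, and so inside the annotated gene. This motif was present in 63 of 32851 promoters of the same length (0.192%). In the Id3 window CAGAC began at -167 on the plus strand and at -68 on the minus strand, and 46.8% of all promoters held it. For Id2 the motif was GGCGCC at -231, present in 10.9% of all promoters. These are matches of letters and not sites of binding. Inhba, Inhbb and Tgfb1 held none of the 3 motifs in this window.

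Against control, Id3 and Id2 were called lower at 1 h and at 4 d, and Id3 also at 6 d, 8 d and 16 d. Smad7 was called lower at 4 d, 6 d, 8 d and 16 d. Fst was called higher from 6 h to 2 d, and Inhba at 12 h and 1 d and once more at 6 d. Bambi was called higher at 1 d and 2 d, and Tgfb1 and Smad6 at 2 d. Of the 8 probe sets with control values, 2 were called lower at 1 h, when 0.283% of all probe sets were called lower. At 6 h 1 was called higher (3.61% of all probe sets called higher), at 12 h 2 (11.5%), at 1 d 3 (16%) and at 2 d 4 (19.5%). None was called lower at 12 h, 1 d or 2 d, when 11.3%, 12.8% and 12.3% of all probe sets were called lower. At 4 d 3 were called lower (6.16% of all probe sets called lower). Of the later groups, 6 d had 1 higher (5.06%) and 2 lower (2.41%), 8 d had 2 lower (2.69%) and 16 d had 2 lower (3%). At 1 h the called probe sets were those of Id3 and Id2, and at 8 d and 16 d those of Id3 and Smad7. The median difference of the 8 probe sets was -0.24 at 1 h, 0.49 at 1 d, 0.48 at 2 d and -0.22 at 16 d, against medians over all probe sets between -0.03 and 0.00 at those times. The moderated F test over the 9 comparisons with control called 8 of the 8, against 52.8% of all probe sets.

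**Figure D1:**
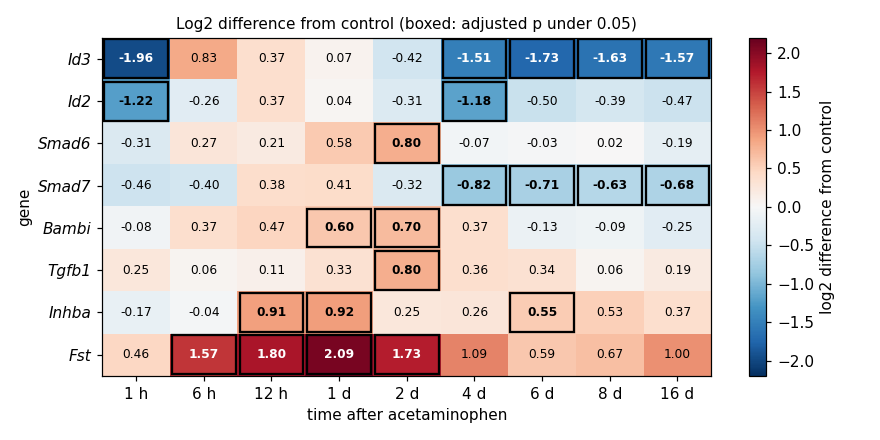
Heat map of the log2 difference from control (colour and printed number) of the 8 probe sets with control values, genes in rows and times in columns; a black box marks an adjusted p under 0.05. Id3 is boxed at 1 h (-1.96) and from 4 d to 16 d, Fst is boxed from 6 h to 2 d, and the Tgfb1 and Smad6 boxes are both at 2 d.

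The ligand gene Tgfb1 (1420653_at), whose product is the founding member of the family, was called higher than control at 2 d and at no other time. The 5 control arrays read 4.94, 4.68, 5.13, 4.85 and 5.22 and the 2 d arrays 5.68, 5.70, 5.52, 5.76 and 6.15. All 2 d arrays lay above all control arrays. The difference was 0.80 ± 0.17 (adjusted p = 0.000212), a 1.74-fold higher signal. Differences at 1 d, 4 d and 6 d were 0.33, 0.36 and 0.34, with adjusted p-values of 0.139, 0.149 and 0.261, and the other times lay between 0.06 and 0.25. A second probe set for Tgfb1 (1445360_at), dim at group means from 4.47 to 4.75, was called at no time against 1 h, and its difference at 2 d was -0.23 ± 0.10 (adjusted p = 0.109). The same 2 d livers carried more signal of some other cell types, though not of all. The summed markers of stellate cells and myofibroblasts spanned 7.68 to 8.24 over the control arrays and 10.82 to 11.52 over the 2 d arrays on the log2 scale, and 6 of 7 measured markers, Col1a2 and Acta2 among them, were called higher. For recruited monocytes and macrophages the sums spanned 9.81 to 10.62 and 11.35 to 11.94, with 5 of 5 called higher, and for liver endothelial cells 9.06 to 9.22 and 9.38 to 10.02, with 3 of 6 called higher. Of 6 lymphocyte markers, 3 were called lower at 2 d and 0 higher, and of 6 neutrophil markers 1 was called higher. Over all probe sets, 19.5% were called higher than control at 2 d and 12.3% lower. Of 3 platelet and megakaryocyte markers and of 3 cholangiocyte markers with control values, 0 were called at 2 d. The platelet marker Pf4, read against 1 h, was higher at 2 d by 2.98 ± 0.33 (adjusted p = 5.64e-07). The cholangiocyte markers Sox9 and Krt7, read likewise, stood at 0.78 and -0.06 (adjusted p = 0.103 and 0.788). The 8 Kupffer cell markers were read against 1 h. At 2 d Marco, Cd5l and Vsig4 were higher by 2.155, 0.728 and 0.619 (adjusted p = 1.32e-06, 0.0129 and 0.0244). C6 was lower, at -2.191 (adjusted p = 2.95e-07), and the others were not called. None of these markers reads 0 on an array, and their part in the 2 d values of Tgfb1, Smad6 and Bambi was not tested.

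**Figure D2:**
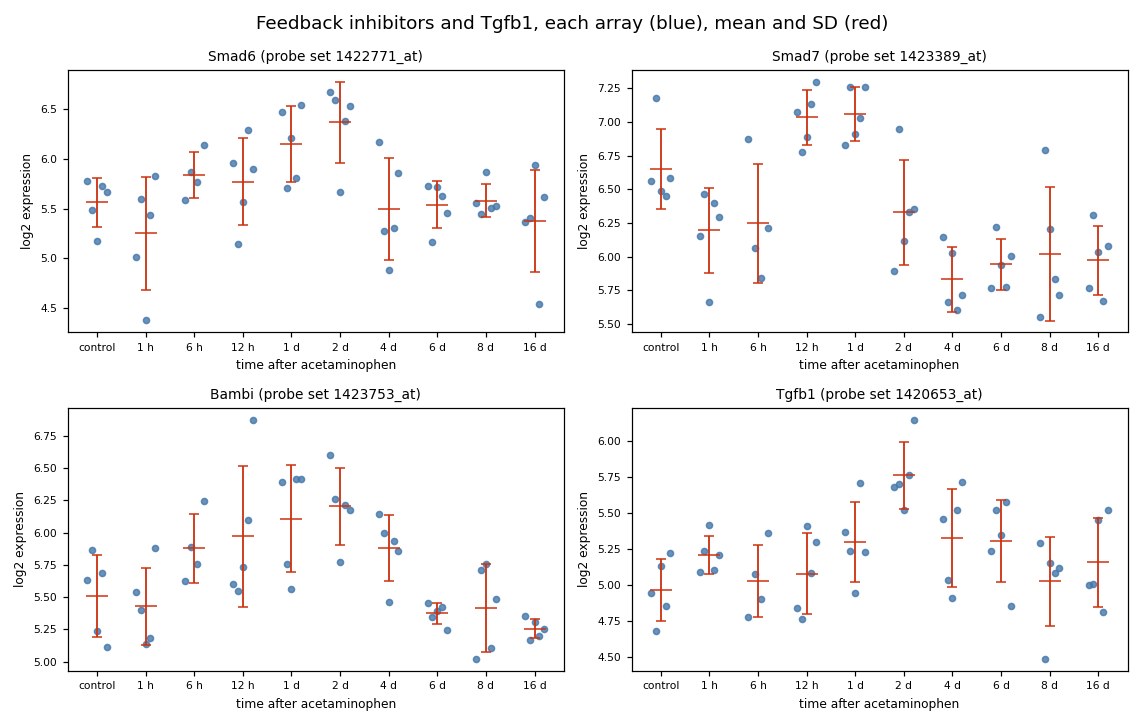
Log2 expression (y axis) by group (x axis) for Smad6, Smad7, Bambi and Tgfb1; each blue point is an array and the red bars are the mean and SD. Tgfb1 and Smad6 have their highest means at 2 d, at 5.76 and 6.37, while Smad7 has its highest at 12 h and 1 d and lies near 6 from 4 d on.

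Inhba, which encodes the beta A subunit of activin A, rose between 6 h and 12 h and stayed high at 1 d. Its probe set 1422053_at read 6.70, 6.78, 6.96, 6.73 and 6.61 on the control arrays. The 12 h arrays read 7.82, 7.11, 7.99, 7.66 and 7.74, and the 1 d arrays 7.64, 8.03, 7.20, 8.30 and 7.19. Every array of both times lay above every control array. The differences from control were 0.91 ± 0.17 at 12 h (adjusted p = 0.000118) and 0.92 ± 0.17 at 1 d (adjusted p = 6.44e-05). Between 6 h and 12 h the signal rose by 0.95 ± 0.19 (adjusted p = 0.000568), and between 1 d and 2 d it fell by 0.66 ± 0.17 (adjusted p = 0.00688). At 2 d and 4 d it stood at 0.25 and 0.26 above control, with adjusted p-values of 0.272 and 0.363.

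Inhba was again higher at 6 d, by 0.55 ± 0.17 (adjusted p = 0.0403), with arrays of 7.32, 7.66, 6.76, 7.49 and 7.30. One of them, replicate 3, lay within the range of the control arrays. This call was lost when any 1 of 6 d replicates 1, 2, 4 and 5 or control replicates 1, 2, 4 and 5 was left out, with differences of 0.47 to 0.56 and adjusted p-values of 0.0593 to 0.145. Quantile normalization (difference 0.42, adjusted p = 0.233) and median centring (0.48, adjusted p = 0.0845) also ended it. At 8 d the difference was 0.53 ± 0.17 (adjusted p = 0.0544) with all arrays above control, and without 8 d replicate 1 it was 0.60 (adjusted p = 0.0408). At 16 d the difference was 0.37 (adjusted p = 0.298), again with every array, from 6.97 to 7.25, above the control arrays. The second Inhba probe set, 1458291_at, was dim, with group means from 3.73 to 3.94, and was called at no time against 1 h.

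Inhbb encodes the beta B subunit of activin B, and its 2 probe sets disagreed. On 1426858_at the 1 h arrays read 4.08, 6.46, 5.15, 6.44 and 6.89. The 12 h arrays read 6.97, 8.53, 8.82, 8.27 and 7.85, and the 1 d arrays 9.33, 8.23, 7.61, 8.76 and 7.83. All 12 h and 1 d arrays lay above all 1 h arrays, although the lowest 12 h array did so by a small margin. Against 1 h this probe set rose by 2.29 ± 0.48 at 12 h (adjusted p = 0.00216) and by 2.55 ± 0.48 at 1 d (adjusted p = 0.00051), a 5.86-fold higher signal. Against 16 d the 1 d level was higher by 2.42 ± 0.48 (adjusted p = 0.000861). The 2 d difference from 1 h, 1.38 ± 0.48 (adjusted p = 0.0412), was lost without any 1 of 1 h replicates 1 and 3 or 2 d replicates 2, 4 and 5, with differences of 0.95 to 1.43 and adjusted p-values of 0.0565 to 0.133. Without the 3 arrays of narrow spread it was 1.22 (adjusted p = 0.0974).

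The other Inhbb probe set, 1426859_at, was nearly flat. Its group means were 7.24 ± 0.21 at 1 h, 7.32 ± 0.25 at 12 h, 7.35 ± 0.19 at 1 d, 7.02 ± 0.14 at 2 d and 7.16 ± 0.29 at 16 d (SD, n = 5 arrays each). No comparison of it with 1 h was called, and the F test over the 25 arrays gave it an adjusted p of 0.273 against 0.000215 for 1426858_at. The arrays alone do not say which of the 2 follows the transcript of Inhbb. A rule that keeps 1 probe set per gene by its mean keeps the flat one.

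Fst encodes follistatin, which binds activins and blocks them, and it was called higher than control from 6 h to 2 d. On 1421365_at the control arrays read 5.26, 5.14, 5.11, 5.22 and 5.49. The 4 arrays at 6 h read 6.52, 6.76, 7.20 and 6.75, and the 12 h arrays 6.05, 6.97, 7.08, 8.79 and 6.30. At 1 d the arrays read 8.50, 7.06, 5.82, 8.36 and 6.95. All of these lay above all control arrays, but the spread grew from an SD of 0.28 at 6 h to 1.07 at 12 h and 1.11 at 1 d. The differences from control were 1.57 ± 0.45 at 6 h (adjusted p = 0.0266), 1.80 ± 0.42 at 12 h (adjusted p = 0.00138), 2.09 ± 0.42 at 1 d (adjusted p = 0.000146) and 1.73 ± 0.42 at 2 d (adjusted p = 0.0013). The 1 d difference is a 4.27-fold higher signal. The 6 h call was lost without any 1 of 6 h replicates 2, 4 and 5 or control replicate 2, with differences of 1.44 to 1.58 and adjusted p-values of 0.0522 to 0.0911. At 4 d Fst read 6.05, 6.06, 6.61, 6.50 and 6.43, every array above control, with a difference of 1.09 ± 0.42 (adjusted p = 0.0767).

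The second Fst probe set, 1434458_at, has no control values used here and moved alike against 1 h. Its 1 h arrays read 4.20, 4.39, 4.15, 4.61 and 4.94, and its 12 h arrays 5.93, 6.80, 7.73, 9.08 and 6.03. The groups did not overlap, and the difference was 2.66 ± 0.71 (adjusted p = 0.0138). At 1 d it was 2.49 ± 0.71 (adjusted p = 0.0163), with 1 d replicate 3, at 4.64, inside the 1 h range. That call was lost without 1 d replicate 1 (difference 2.11, adjusted p = 0.0539) or 1 d replicate 4 (2.18, adjusted p = 0.0507). The 2 d difference of 2.15 ± 0.71 (adjusted p = 0.0321) was lost without any 1 of 1 h replicates 1, 2 and 3 or 2 d replicates 1, 2 and 5, with differences of 2.01 to 2.14 and adjusted p-values of 0.0525 to 0.0662.

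The summed signal of neutrophil markers was also highest at 12 h and 1 d. On the log2 scale it spanned 7.56 to 7.99 over the control arrays, 8.16 to 11.58 at 12 h and 8.66 to 11.47 at 1 d. Of 6 measured markers, 3 and 2 were called higher at those times. S100a8, the brightest of them there, had means of 5.04 in control, 9.36 at 12 h and 9.67 at 1 d. Cxcr2 stood at 5.24, 5.29 and 5.21, and Ngp and Camp had their highest means at 16 d. At 1 d the monocyte and macrophage sums spanned 10.42 to 11.17, with 4 of 5 markers called higher, and those of stellate cells and myofibroblasts 9.69 to 10.68, with 3 of 7 called higher. At 12 h these lists had 1 of 5 and 2 of 7 called higher. Over all probe sets, 11.5% were called higher and 11.3% lower at 12 h, and 16% and 12.8% at 1 d. Endothelial markers with control values summed to 9.23 to 9.64 at 1 d, with 3 of 6 called higher, and had 1 called higher and 1 lower at 12 h. Those read against 1 h went both ways. Lyve1 was higher at 12 h by 1.92 ± 0.34 (adjusted p = 0.000458) and at 1 d by 2.41 ± 0.34 (adjusted p = 2.24e-05). At 1 d Stab1 was also higher, by 0.39 ± 0.11 (adjusted p = 0.0134). Kdr and Clec4g were lower at 1 d, at -0.88 ± 0.23 and -0.76 ± 0.26 (adjusted p = 0.00922 and 0.0468). Platelet and megakaryocyte markers spanned 7.26 to 7.55 over the control arrays and 7.37 to 9.08 at 6 h, with 2 of 3 called higher at 6 h and 1 of 3 at 12 h and at 1 d. At 6 h 3.61% of all probe sets were called higher. Pf4, read against 1 h, was higher at 12 h by 1.42 ± 0.33 (adjusted p = 0.00538) and at 1 d by 1.93 ± 0.33 (adjusted p = 0.000186). Of the cholangiocyte markers, 0 of 3 with control values were called at any time, and their sums spanned 5.61 to 5.95 in control and 5.80 to 6.01 at 12 h. Of the 2 read against 1 h, Sox9 was higher at 12 h by 1.73 ± 0.35 (adjusted p = 0.00132) and at 1 d by 2.22 ± 0.35 (adjusted p = 6.06e-05), while Krt7 stood at -0.04 and 0.14 (adjusted p = 0.868 and 0.513). The part of these cell types in the values of Fst, Inhba and Inhbb was not tested.

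**Figure D3:**
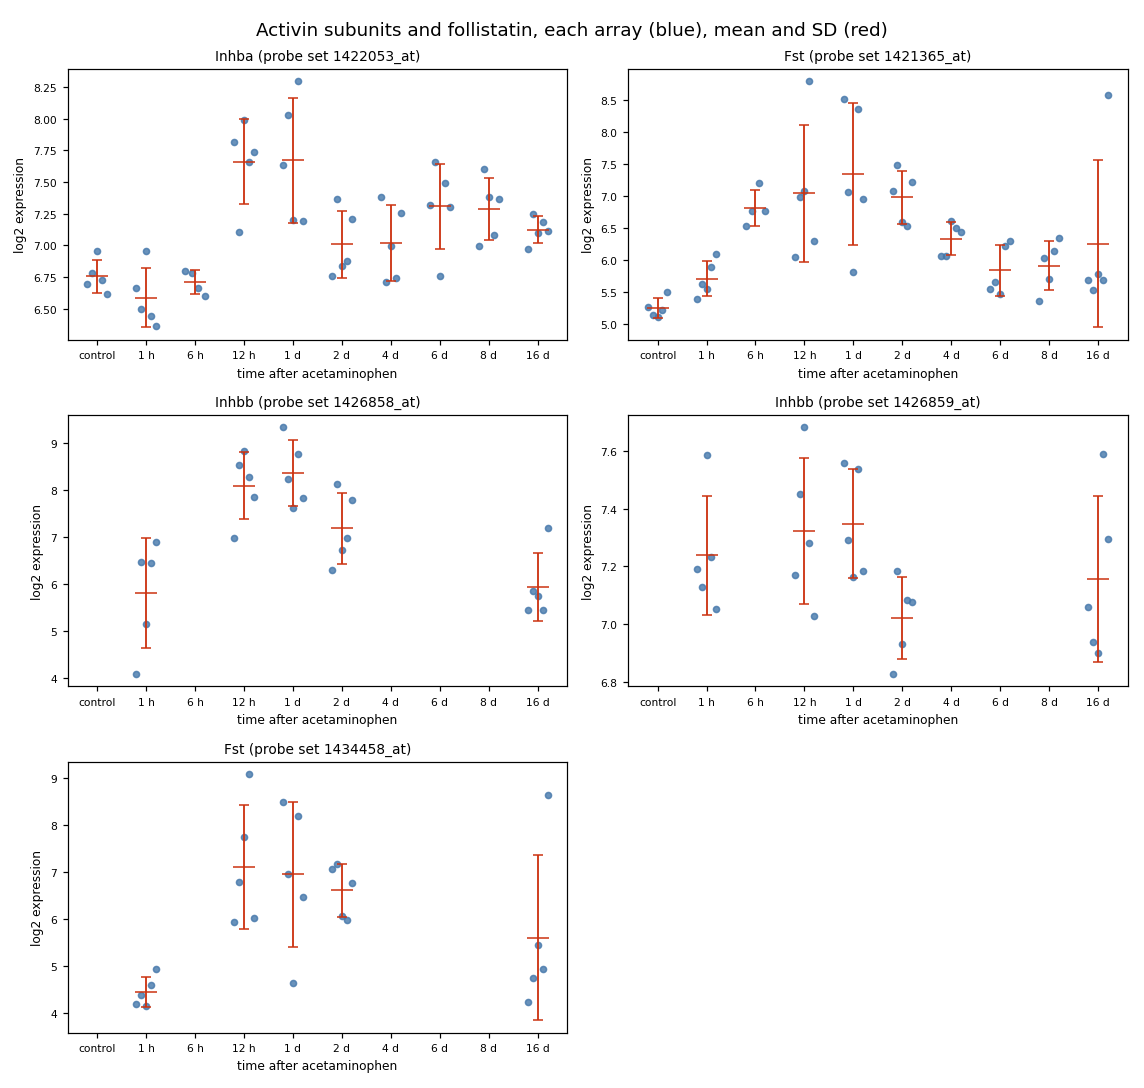
Log2 expression (y axis) by group (x axis) for the activin subunits and follistatin; each blue point is an array, the red bars are the mean and SD, and empty groups hold no value for that probe set. Inhba, 1 of the 2 Inhbb probe sets and both Fst probe sets are high at 12 h and 1 d, and 16 d replicate 5 stands above the rest of its group for Fst and for Inhbb 1426858_at.

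The inhibitory SMADs differed in timing. Smad6, whose product preferentially blocks the BMP branch, was called higher at 2 d, where its probe set 1422771_at read 6.67, 6.59, 5.66, 6.38 and 6.52. The control arrays read 5.78, 5.48, 5.17, 5.72 and 5.66. One 2 d array, replicate 3, lay within the control range and the other 4 lay above it. The difference was 0.80 ± 0.24 (adjusted p = 0.00909), and from 2 d to 4 d the signal fell by 0.87 ± 0.24 (adjusted p = 0.00786). At 1 d Smad6 was 0.58 ± 0.24 above control (adjusted p = 0.0659), which became 0.69 (adjusted p = 0.0384) without 1 d replicate 2. From 4 d to 16 d its differences lay between -0.19 and 0.02.

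Smad7, which blocks both branches at the receptor, was lower than control from 4 d to 16 d. On 1423389_at the control arrays read 6.56, 7.18, 6.48, 6.45 and 6.58. The 4 d arrays read 6.14, 5.66, 6.03, 5.60 and 5.72, and the 6 d arrays 5.77, 6.22, 5.94, 5.78 and 6.01. Both groups lay wholly below the control arrays, as did 16 d, while 8 d replicate 2, at 6.80, lay within their range. The signal fell below control by 0.82 ± 0.19 at 4 d (adjusted p = 0.00205), 0.71 ± 0.19 at 6 d (adjusted p = 0.0147), 0.63 ± 0.19 at 8 d (adjusted p = 0.0368) and 0.68 ± 0.19 at 16 d (adjusted p = 0.0241). Control replicate 2 carries part of these values: without it the differences were -0.58 at 6 d (adjusted p = 0.0707), -0.50 at 8 d (adjusted p = 0.122) and -0.55 at 16 d (adjusted p = 0.121). The 8 d call was also lost without any 1 of control replicates 1 and 5 and 8 d replicates 1, 4 and 5 (adjusted p from 0.0524 to 0.142), and the 16 d call without 16 d replicate 1 (0.0714), without 16 d replicate 4 (0.0756) or without the 3 arrays of narrow spread (0.0559).

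Before that late fall, Smad7 had risen by 0.79 ± 0.21 between 6 h and 12 h (adjusted p = 0.0111) and fallen by 0.73 ± 0.19 between 1 d and 2 d (adjusted p = 0.00739). The 12 h arrays read 7.08, 6.78, 6.89, 7.13 and 7.30, and the 1 d arrays 6.83, 7.26, 6.91, 7.03 and 7.26. All 10 of these arrays lay above 4 of the 5 control arrays and, with exceptions at both times, below control replicate 2. Against control the differences were 0.38 at 12 h (adjusted p = 0.158) and 0.41 at 1 d (adjusted p = 0.113), and without control replicate 2 the 1 d difference was 0.54 (adjusted p = 0.039). The probe set 1443771_x_at, whose name marks possible cross-hybridisation, also read Smad7 higher than at 1 h, by 0.95 ± 0.26 at 12 h (adjusted p = 0.0173) and 1.22 ± 0.26 at 1 d (adjusted p = 0.00188). Its 12 h call was lost without 12 h replicate 1 (difference 0.82, adjusted p = 0.0518) or 1 h replicate 3 (0.72, adjusted p = 0.0578).

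Bambi encodes a receptor-like membrane protein without a kinase domain that sequesters ligand signalling. Its probe set 1423753_at read 5.63, 5.86, 5.24, 5.69 and 5.11 on the control arrays and 6.60, 6.26, 5.77, 6.21 and 6.18 at 2 d. All of the 2 d arrays but replicate 3 lay above all control arrays. It rose by 0.70 ± 0.20 at 2 d (adjusted p = 0.00517), when Smad6 and Tgfb1 were also called higher. At 1 d Bambi was higher by 0.60 ± 0.20 (adjusted p = 0.0175), with arrays of 6.39, 5.75, 5.57, 6.41 and 6.41, of which replicates 2 and 3 lay within the control range. Without any 1 of 1 d replicates 1, 4 and 5 or control replicates 3 and 5 that call was lost, with differences of 0.50 to 0.53 and adjusted p-values of 0.0525 to 0.063. Centring on ribosomal protein probe sets gave 0.35 (adjusted p = 0.103). The 12 h difference was 0.47 (adjusted p = 0.0824), and it passed without any 1 of 12 h replicates 1 and 2 and control replicate 2, with adjusted p-values from 0.0452 to 0.0492.

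Id3 was lower than control early, with the largest 1 h difference of the 8 probe sets with control values. It was lower again later, to the end of the series. On 1416630_at the control arrays read 9.81, 9.48, 9.49, 9.74 and 9.48, and the 1 h arrays 7.26, 7.62, 7.20, 8.05 and 8.06. The groups lay far apart. Id3 was lower at 1 h by 1.96 ± 0.32 (adjusted p = 0.000178), a 3.90-fold lower signal. Dosed mice had been starved and injected, which is not stated for control, and the part of this in the difference was not tested. By 6 h the arrays read 10.79, 10.22, 10.36 and 10.33, all above control, a rise of 2.79 ± 0.34 from 1 h (adjusted p = 3.04e-07). Against control the 6 h difference was 0.83 ± 0.34 (adjusted p = 0.194), and a fit of those groups alone gave it an adjusted p of 0.00711. At 12 h, 1 d and 2 d the differences were 0.37, 0.07 and -0.42, with adjusted p-values of 0.454, 0.901 and 0.333.

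From 4 d on Id3 was lower than control again. The 4 d arrays read 8.64, 8.18, 8.49, 7.33 and 7.83, the 6 d arrays 7.23, 8.02, 8.53, 8.15 and 7.42, and the 8 d arrays 7.72, 7.57, 8.65, 7.70 and 8.23. All 15 lay below all control arrays. Id3 fell below control by 1.51 ± 0.32 at 4 d (adjusted p = 0.000643), 1.73 ± 0.32 at 6 d (adjusted p = 0.000227) and 1.63 ± 0.32 at 8 d (adjusted p = 0.000542). The step from 2 d to 4 d was a fall of 1.09 ± 0.32 (adjusted p = 0.0131). At 16 d the arrays read 7.26, 8.12, 7.71, 7.28 and 9.76. The first 4 lay below control and replicate 5 lay within its range, and the difference was -1.57 ± 0.32 (adjusted p = 0.000884; 0.0574 in a fit of these groups alone). Of the 8 probe sets with control values, Id3 and Smad7 were those called at 16 d.

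Id2 was lower than control together with Id3 at 1 h and at 4 d. On 1422537_a_at the control arrays read 10.96, 10.54, 10.18, 10.45 and 11.03, and the 1 h arrays 9.04, 9.59, 8.98, 9.72 and 9.74. The 4 d arrays read 9.78, 9.71, 9.38, 9.01 and 9.37. Neither group overlapped the control arrays. Id2 was lower than control by 1.22 ± 0.21 at 1 h (adjusted p = 0.000358) and by 1.18 ± 0.21 at 4 d (adjusted p = 4.27e-05), a 2.33-fold and a 2.27-fold lower signal. It rose by 0.96 ± 0.22 from 1 h to 6 h (adjusted p = 0.00517) and fell by 0.88 ± 0.21 from 2 d to 4 d (adjusted p = 0.00178). At 6 d, 8 d and 16 d the differences from control were -0.50, -0.39 and -0.47, with adjusted p-values of 0.159, 0.319 and 0.244. Whether Id2 and Id3 differ at these late times was not tested. At 2 d the Id2 difference of -0.31 (adjusted p = 0.267) became -0.54 under median centring (adjusted p = 0.0262) and -0.53 under ribosomal protein centring (adjusted p = 0.0282).

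Both other Id2 probe sets were low at 1 h too. On 1435176_a_at the 1 h arrays read 8.74, 9.22, 8.32, 9.08 and 9.07 and the 12 h arrays 10.85, 11.02, 10.60, 10.69 and 10.78. The difference of 1.90 ± 0.22 (adjusted p = 2.89e-06) was followed by 1.55 at 1 d (adjusted p = 2.19e-05) and 1.26 at 2 d (adjusted p = 0.00019). At 16 d it was 0.92 ± 0.22 (adjusted p = 0.0285), with every 16 d array above every 1 h array. That call was lost without any 1 of 16 d replicates 2 and 5 and 1 h replicates 1 and 3, with differences of 0.72 to 0.94 and adjusted p-values of 0.0535 to 0.0911, and without the 3 arrays of narrow spread (0.81, adjusted p = 0.0981). On 1453596_at the differences from 1 h were 1.32 ± 0.29 at 12 h (adjusted p = 0.00337), 1.14 ± 0.29 at 1 d (adjusted p = 0.00775) and 0.50 at 2 d (adjusted p = 0.218).

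Id1 (1425895_a_at) was low at both ends of the series and high in between. The 1 h arrays read 6.65, 6.97, 6.17, 7.20 and 7.37, and the 16 d arrays 5.94, 6.47, 6.60, 5.65 and 6.34. In the middle, the 12 h arrays read 8.97, 8.51, 9.41, 8.77 and 9.39, the 1 d arrays 9.68, 9.27, 9.92, 9.81 and 9.70, and the 2 d arrays 8.19, 9.61, 9.18, 9.37 and 9.65. All 15 arrays of 12 h, 1 d and 2 d lay above all 10 arrays of 1 h and 16 d. Against 1 h Id1 rose by 2.14 ± 0.26 at 12 h (adjusted p = 4.36e-06), 2.80 ± 0.26 at 1 d (adjusted p = 6.77e-08) and 2.33 ± 0.26 at 2 d (adjusted p = 4.51e-07). Against 16 d the 1 d signal was higher by 3.48 ± 0.26 (adjusted p = 3.66e-09), or 11.1-fold, in a comparison that called 8.2% of all probe sets higher. The difference between 16 d and 1 h was -0.67 ± 0.26 (adjusted p = 0.301), and with array weights -0.71 (adjusted p = 0.0494). Where control lies between these levels was not analysed here.

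**Figure D4:**
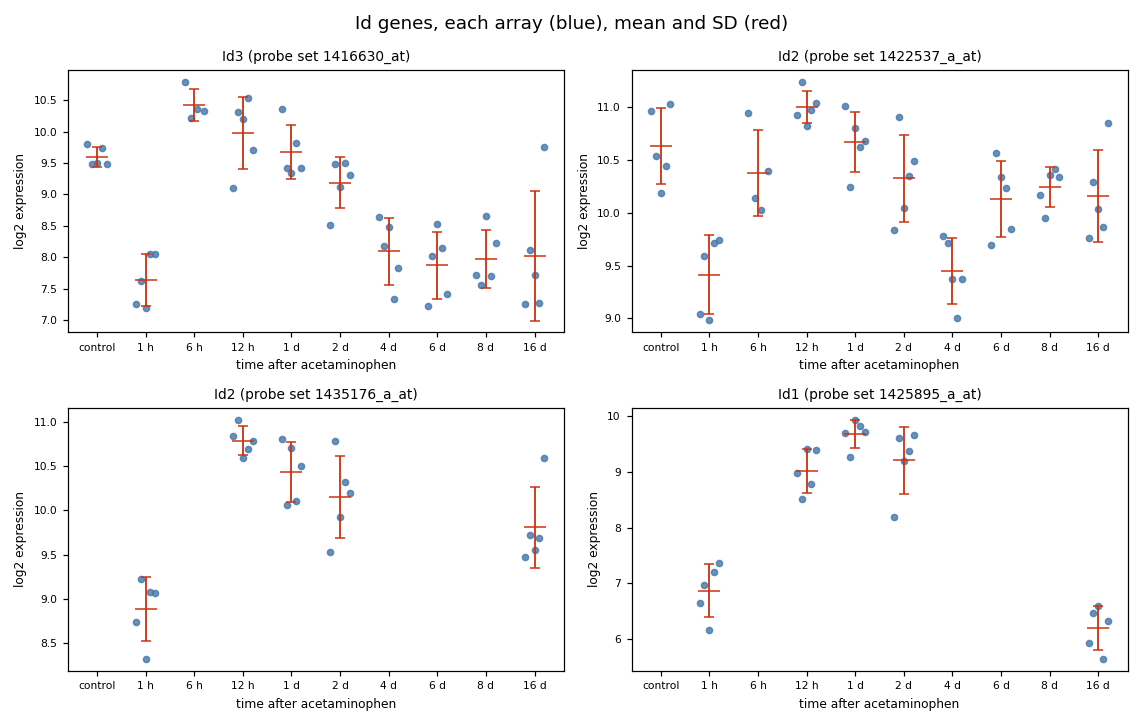
Log2 expression (y axis) by group (x axis) for Id3, for 2 probe sets of Id2 and for Id1; each blue point is an array, the red bars are the mean and SD, and empty groups hold no value for that probe set. Id3 lies below control at 1 h and from 4 d on, Id2 dips at 1 h and 4 d, and Id1 is high at 12 h, 1 d and 2 d.

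Over the 9 probe sets without control values, 6 were called higher than at 1 h at 12 h (6.3% of all probe sets called higher), 6 at 1 d (8.8%), 4 at 2 d (10.9%) and 1 at 16 d (0.899%). The median difference of the 9 was 1.32 at 12 h and 1.22 at 1 d, against -0.07 over all probe sets at both times. The F test over the 25 arrays called 6 of the 9, against 29.9% of all probe sets. The 3 that it did not call were the flat Inhbb probe set and the dim ones of Tgfb1 and Inhba. Id3 and Id2, read against 1 h on the same 25 arrays, were also higher at 12 h, by 2.33 ± 0.36 (adjusted p = 9.16e-05) and 1.59 ± 0.21 (adjusted p = 1.22e-05). The comparisons with 1 h share the 1 h arrays, and those with control share the control arrays, so similar differences at neighbouring times are not separate evidence.

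From one time to the next, the 8 probe sets gave 9 calls in all. Between 1 h and 6 h, 2 rose (3.07% of all probe sets called higher), those of Id3 and Id2. Between 6 h and 12 h, 2 rose (4.02%), those of Inhba and Smad7, and these also were the 2 that fell between 1 d and 2 d (3.53% called lower). Between 2 d and 4 d, 3 fell (12.6%), those of Id3, Id2 and Smad6. None was called between 12 h and 1 d (4.82% of all called in either direction) or at any step after 4 d, where the shares over all probe sets were 2.18%, 0% and 0.0123%.

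In the order of group means, Id3 ran from 10.43 ± 0.25 at 6 h (SD, n = 4) through 12 h, 1 d, control, 2 d, 4 d, 16 d, 8 d and 6 d to 7.64 ± 0.41 at 1 h (SD, n = 5). Id2 (1422537_a_at) ran from 11.00 ± 0.16 at 12 h through 1 d, control, 6 h, 2 d, 8 d, 16 d, 6 d and 4 d to 9.41 ± 0.37 at 1 h. Smad7 (1423389_at) ran from 7.06 ± 0.20 at 1 d through 12 h, control, 2 d, 6 h, 1 h, 8 d, 16 d and 6 d to 5.83 ± 0.24 at 4 d. Inhba ran from 7.67 ± 0.49 at 1 d through 12 h, 6 d, 8 d, 16 d, 4 d, 2 d, control and 6 h to 6.59 ± 0.23 at 1 h. Fst (1421365_at) had 1 d, 12 h, 2 d and 6 h at the top, from 7.34 ± 1.11 down to 6.81 ± 0.28, and control at the bottom at 5.24 ± 0.15. Tgfb1 ran from 5.76 ± 0.23 at 2 d to 4.96 ± 0.22 in control, Smad6 from 6.37 ± 0.41 at 2 d to 5.25 ± 0.57 at 1 h, and Bambi from 6.20 ± 0.30 at 2 d to 5.26 ± 0.08 at 16 d. For each of these 8 probe sets, any group overlapped the next in its order. Among the probe sets on 25 arrays, gaps between neighbours were found for Id1, between 12 h and 1 h, and for Id2 1435176_a_at, between 16 d and 1 h.

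Replicate 5 of 16 d stood apart from the other 4 arrays of its group for several members at once. It read 8.58 for Fst on 1421365_at, where the next highest array read 5.77, and 8.64 on 1434458_at, where the next read 5.46. For Inhbb 1426858_at it read 7.19 against 5.85, for Id2 1435176_a_at 10.60 against 9.73, and for Id3 9.76 against 8.12. It was not set apart for Id1 (6.34), Smad7 (6.08) or Bambi (5.25). Over all probe sets, it lay far above its group for 0.79% and far below it for 0.315%.

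Of 8 listed genes of TGF beta ligands and their activation with control values, 1 was called higher at 12 h (11.5% of all probe sets called higher) and at 1 d (16%), and 3 higher (19.5%) and 1 lower (12.3% called lower) at 2 d. Itgav, the integrin chain that helps release latent TGF beta, was higher at 2 d by 1.49 ± 0.23 (adjusted p = 9.24e-07), and Ltbp2, a matrix protein of the latent TGF beta binding family, by 0.65 ± 0.14 (adjusted p = 0.000171). The Ltbp2 probe set was dim, at 2.96 in control and 3.61 at 2 d. Thbs1 encodes thrombospondin, an activator of latent TGF beta, and was higher at 1 d than at 1 h by 3.68 ± 0.57 (adjusted p = 5.29e-05). The median of the 8 at 2 d was 0.38, against -0.03 over all probe sets.

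The liver's own activin-type subunits went the other way from Inhba. Inhbe, a subunit made mainly by hepatocytes, fell by 3.43 ± 0.52 at 12 h (adjusted p = 2.79e-06) and was called lower at 8 of the 9 times, 6 h being the exception. Its group means were 9.38 ± 0.50 in control, 5.95 ± 0.88 at 12 h and 6.54 ± 1.44 at 16 d. Inhbc, a second such subunit, fell by 1.26 ± 0.27 at 12 h (adjusted p = 0.000411). Fstl1, a secreted follistatin-like glycoprotein, rose by 3.57 ± 0.28 at 2 d (adjusted p = 9.36e-14), from 4.16 ± 0.59 to 7.73 ± 0.55. Of the 7 listed genes of this group with control values, 1 was called higher (11.5% over all probe sets) and 2 lower (11.3%) at 12 h, and 1 higher (19.5%) and 1 lower (12.3%) at 2 d.

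In the BMP layer, of 7 listed genes with control values, 2 were called lower at 12 h (11.3% over all probe sets) and at 1 d (12.8%), and 1 higher (19.5%) and 1 lower (12.3%) at 2 d. Bmp7 fell by 0.84 ± 0.16 at 1 d (adjusted p = 4.14e-05), and Bmp5 was higher by 0.72 ± 0.19 at 2 d (adjusted p = 0.00323). Hamp, which encodes hepcidin and is a BMP target in hepatocytes, was lower than control by 0.68 ± 0.17 at 1 h (adjusted p = 0.0451) and by 0.79 ± 0.17 at 8 d (adjusted p = 0.00145). Its group means were 12.83 ± 0.17 in control, 12.16 ± 0.27 at 1 h and 12.04 ± 0.33 at 8 d. At 12 h, 1 d and 2 d they were 13.20 ± 0.31, 13.26 ± 0.18 and 13.06 ± 0.19, above control but not called. Among the receptors, 3 of 8 with control values were called higher at 1 d (16% over all probe sets) and at 2 d (19.5%). Tgfbr1, the type I TGF beta receptor, was higher at 2 d by 0.77 ± 0.15 (adjusted p = 5.74e-05), and Eng, the endothelial co-receptor endoglin, by 0.55 ± 0.11 (adjusted p = 6.53e-05). Amhr2, the receptor of anti-Müllerian hormone, fell by 0.45 ± 0.13 between 1 h and 1 d (adjusted p = 0.0164), on a probe set whose name warns of cross-hybridisation.

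Within the list of SMADs and their cofactors, 5 of 11 genes with control values were called higher (16% over all probe sets) and 1 lower (12.8%) at 1 d. Tgif1, a corepressor of SMADs, was higher from 6 h to 2 d, reached 2.62 ± 0.24 at 12 h (adjusted p = 1.27e-11) and was called higher again at 16 d, by 0.83 ± 0.24 (adjusted p = 0.0218). Pmepa1, a TGF beta-induced membrane protein that holds back receptor SMADs, was higher by 1.47 ± 0.21 at 2 d (adjusted p = 3.09e-07). Smad3, a receptor SMAD of the TGF beta and activin branch, was higher at 12 h than at 1 h by 0.84 ± 0.20 (adjusted p = 0.00523). Of the 13 listed TGF beta target genes with control values, 11 were called higher at 1 d (16% over all probe sets) and 12 at 2 d (19.5%), with none lower (12.8% and 12.3% over all probe sets). Their median difference at 2 d was 1.75, against -0.03 over all probe sets. The collagen gene Col1a2 was higher at 2 d by 4.25 ± 0.26 (adjusted p = 7.45e-17), Acta2, smooth muscle actin, by 3.95 ± 0.24 (adjusted p = 7.01e-17) on a probe set whose name warns of cross-hybridisation, and Col3a1, a second collagen, was higher at 2 d than at 1 h by 4.60 ± 0.39 (adjusted p = 1.18e-08). Several of these targets are stellate cell markers, whose summed signal is given beside Tgfb1.

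Of the 8 bHLH partners and relatives of the Id proteins with control values, 1 was called higher at 12 h and 2 at 1 d and at 2 d, with none lower, when 11.5%, 16% and 19.5% of all probe sets were called higher and 11.3%, 12.8% and 12.3% lower at those times. Tcf4, a widely expressed E protein that Id proteins bind, was higher at 2 d by 0.81 ± 0.18 (adjusted p = 0.000352), on a probe set whose name warns of cross-hybridisation. Hey1, a Notch target, was higher at 12 h by 0.79 ± 0.20 (adjusted p = 0.00329), and Hes1, another, at 1 d by 0.77 ± 0.23 (adjusted p = 0.0085).

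**Figure D5:**
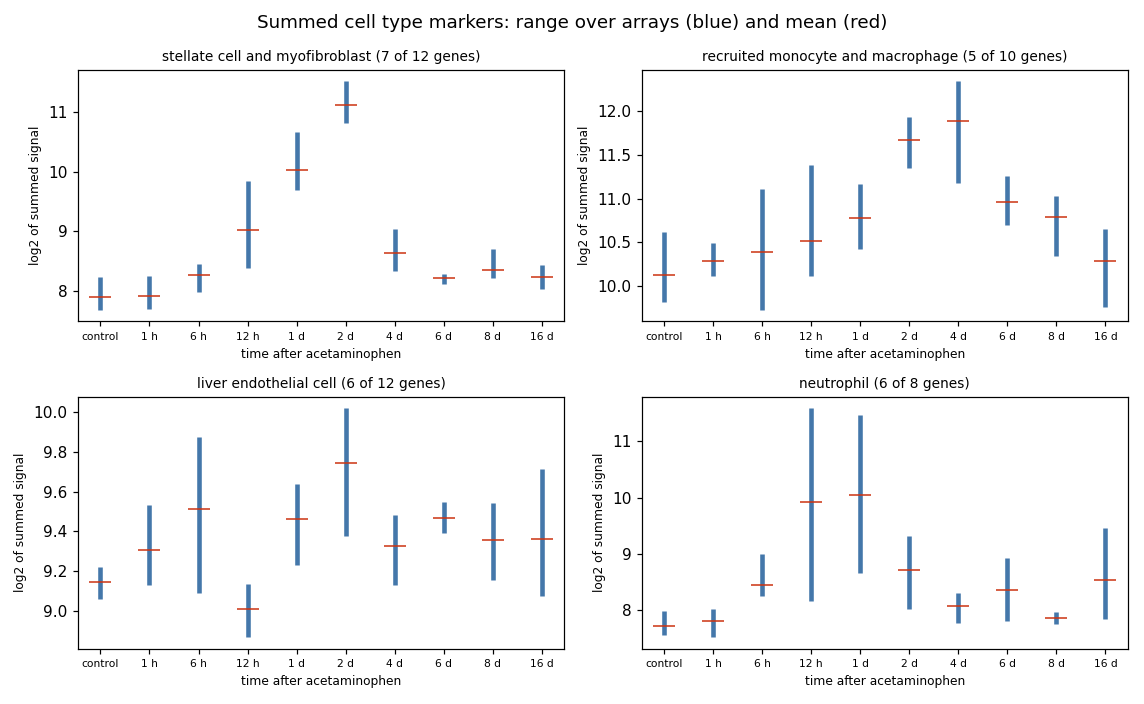
Log2 of the summed signal of cell type markers (y axis) by group (x axis) in 4 panels; blue bars span the lowest to the highest array and red lines mark the mean of the arrays. Stellate cell markers have their highest mean, 11.12, at 2 d, monocyte and macrophage markers reach 11.67 at 2 d and 11.89 at 4 d, and neutrophil markers reach 9.91 and 10.05 at 12 h and 1 d.

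The genes whose pattern over arrays was most like each member were found by Pearson's r over the arrays of all groups, which share their treatment times. For Id3 over 49 arrays these were Actg1 (0.861), Rnd3 (0.832) and Ets2 (0.809). For Id2 they were Ppp2ca (0.759), Id3 (0.749) and Gpatch4 (0.743), and for Id1 over 25 arrays Ppp1r14b (0.954), Fth1 (0.945) and Psmd8 (0.942). Id3 was thus among the 3 genes most like Id2. Smad7 was most like Dnajc2 (0.817), Eif4g2 (0.809) and Lor (0.785), and Smad6 most like Eftud2 (0.809), Tmod3 (0.803) and Plekha1 (0.797). Bambi was followed by Fhl1 (0.774), Ets1 (0.764) and Cyth3 (0.751). Tgfb1 was most like Hcls1 (0.823), Rac2 (0.79) and Ms4a6b (0.775), all of which are expressed mainly in blood-derived cells. Inhba was most like Mmp13 (0.711), Vmp1 (0.691) and Tac1 (0.644), and Fst most like Ier3 (0.858), Srgn (0.797) and Btg2 (0.786). The flat Inhbb probe set 1426859_at was most like Eef1a2 (0.795), Acod1 (0.745) and Aqp2 (0.74), while 1426858_at, examined after its values were seen, was most like Srgn (0.929), Lyve1 (0.927) and Akap2 (0.925).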

How the data were processed

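Per the submitters' processing notes, expression values were made with oligo 1.52.0 and RMA, and the deposited values are log2 expression per probe set and array. RMA corrects background, quantile normalizes and summarises probes, which removes global shifts and compresses dim signals. The sources used here do not say whether all arrays were normalized together. Of the arrays, 25 (those at 1 h and 12 h and at 1, 2 and 16 d) held every probe set and 24 held a part. After 64 control probe sets were left out, 45037 probe sets were tested on the 25 arrays and 8137 on all 49. Values were used as deposited, with no filter.

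The tests used limma 3.58.1 under R 4.3.3, by lmFit, then contrasts.fit and eBayes, with 1 mean per group over all arrays, with Benjamini-Hochberg adjustment over all probe sets. The procedure was tested on simulated data. Members and gene lists were chosen with earlier results of these data known. Named beside the members are, per pathway list, up to 3 called genes with the largest difference, and per member the 3 genes most like its brightest probe set. Probe set names come from the platform annotation. The number of arrays limits the precision. Replicate numbers did not pair the arrays throughout the series. Alternatives covered probe set choice, a filter on dim probe sets, eBayes settings, array weights, normalization, the groups fitted, a replicate block and arrays left out.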

Additional observations from a re-analysis of the deposited data

Results flagged for a closer look

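In 9 of 125 groups of a member's arrays tested, 1 array lay far from the other arrays of its group, where chance flags about 1 group in 20. Replicate 5 of 16 d accounts for 4 of them: it was the highest array of its group for Fst on both probe sets, at 8.58 (next 5.77) and 8.64 (next 5.46), for Inhbb 1426858_at at 7.19 (next 5.85) and for Id2 1435176_a_at at 10.6 (next 9.73). The other arrays that stood apart were control replicate 2 for Smad7, at 7.18 (next 6.58), 8 d replicate 2 for Tgfb1, at 4.49 (next 5.08), 8 d replicate 3 for Smad6, at 5.86 (next 5.56), 1 h replicate 3 for Smad7 1443771_x_at, at 3.42 (next 4.45), and 1 h replicate 1 for Inhba 1458291_at, at 4.03 (next 3.87). Of these arrays, 1 h replicate 3 and 8 d replicate 2 also lay far below their group for 6.22% and 6.54% of all probe sets. For 16 d replicate 4 and control replicate 3 these shares were 8.83% and 6.98%. All 9 groups flagged were of control, 1 h, 8 d or 16 d, where more than 1 in 20 of all probe sets hold such an array.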

How the results depend on the processing

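Of 108 differences between groups recomputed under the alternatives, 39 were called. Leaving arrays aside, the alternatives gave 398 values for these 39, of which 382 kept direction and call, 16 lost the call and 0 changed sign. With 1 array left out, 46 of 389 values lost the call. Centring on ribosomal protein probe sets moved the median of all probe sets against control by -0.148 at 12 h, -0.275 at 1 d and -0.246 at 2 d, and against 1 h by -0.28, -0.406 and -0.365. Counts of called member probe sets moved as follows, and the cause was not tested. At 16 d against 1 h the count of 1 became 2 with array weights and 0 with 1 probe set per gene, with only the compared groups fitted or without the 3 arrays of narrow spread, and lay between 0 and 1 with 1 array left out. At 16 d against control the count of 2 became 0 with only the compared groups fitted and 1 without the narrow arrays, and lay between 1 and 2 with 1 array left out. At 2 d against 1 h the count of 4 became 7 with ribosomal centring and 2 without the narrow arrays, and lay between 2 and 4. At 6 h against control the count of 1 became 2 with array weights and 2 with only the compared groups fitted, and lay between 0 and 1. With array weights, 4 d against control gave 5 calls in place of 3, and neighbouring times 15 in place of 9. With 1 array left out, 6 d gave 1 to 3 calls and 8 d 1 to 2.

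All sign changes were of uncalled differences near 0, and their cause was not tested. At 1 d against control, Id3 (0.072) was -0.051 with array weights, -0.023 median centred, -0.179 ribosomal centred and -0.099 to 0.156 with 1 array left out, and Id2 (0.04) was -0.125, -0.056 and -0.211, -0.072 without the narrow arrays, and -0.072 to 0.147. Smad6 at 8 d (0.016) was -0.085 with array weights, -0.038 median centred, -0.008 quantile normalized, -0.082 without the narrow arrays and -0.082 to 0.07 with 1 array left out. At 6 d Smad6 was 0.004 ribosomal centred and -0.124 to 0.068, at 4 d -0.236 to 0.085 and at 16 d -0.331 to 0.016. Inhba was -0.009 at 2 d when quantile normalized, 0.007 at 6 h without the narrow arrays and -0.079 to 0.007 there with 1 array left out. Tgfb1 was -0.049 to 0.146 at 6 h and -0.012 to 0.195 at 8 d, and Bambi -0.192 to 0.011 at 1 h and -0.189 to 0.008 at 8 d. Against 1 h, Inhbb 1426858_at at 16 d was -0.121 with array weights and -0.3 to 0.401 with 1 array left out. Inhbb 1426859_at was -0.123 at 12 h and -0.224 at 1 d when ribosomal centred, -0.006 to 0.171 at 12 h and -0.19 to 0.006 at 16 d with 1 array left out. At 16 d the dim probe sets spanned -0.014 to 0.117 for Tgfb1 and -0.024 to 0.112 for Inhba.

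Over 45 pairs of groups, arrays of the same replicate number correlated in their deviations from the group means between -0.557 and 0.821. The median of the pair means was 0.067, and 1 pair had every correlation over 0.1. The numbers thus do not pair the arrays throughout the series. For control and 1 h the correlations lay between 0.091 and 0.821, with a mean of 0.38, and whether these arrays share a batch by number was not tested. With the replicate number as a block, the count of calls went from 3 to 4 at 1 d and from 9 to 11 between neighbouring times and did not move in the other comparisons. Smad6 at 1 d gained a call (difference 0.581, adjusted p = 0.0497). What arrays limit is the precision at 4 or 5 per group and, for probe sets near background such as Inhba 1458291_at, the size of any difference.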
